A study of Mus musculus with 3 samples.

Results

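The immunoglobulin heavy chain V segments are the genes whose mouse symbol, looked up from the Entrez gene number, begins with Ighv, and 120 of the 27179 genes counted met that rule. They were grouped by the family number in the symbol: 19 proximal segments (Ighv2 and Ighv5), 31 middle segments (every other family) and 70 distal segments (60 of Ighv1 and 10 of Ighv8). RefSeq names 183 Ighv genes on the GRCm38.p6 assembly, and the 63 of them that it lists as pseudogenes were not analysed here. Total RNA was sequenced from 2 Pax5-/- samples, both male, and from 1 wild-type sample, which was female; all were C57BL/6 pro-B cells from bone marrow. B220+ cells were grown on OP9, a stromal feeder line. For both Pax5-/- samples the labels also give a separation of IgM- cells at day 7, which the wild-type label lacks, and neither the age of the mice nor the Pax5 deletion itself is described. Genotype, sex and this separation changed together, so their parts in any difference cannot be told apart.

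A heavy chain gene is assembled by joining a D segment to a J segment and then a V segment to that DJ unit. The V segments occupy most of the locus, with the Ighv5 and Ighv2 families nearest to the D segments and the large Ighv1 family, mixed with Ighv8, at the far end. Each V segment has its own promoter and is transcribed both before joining, as germline transcript, and after joining, as part of a complete heavy chain mRNA. Pax5 is known to be required for contraction of the locus in pro-B cells, which brings the far segments near the D and J segments, and pro-B cells without it are known for joining mainly the nearest V segments. Counts per gene do not separate germline from joined transcripts, and in bulk RNA fewer cells with a given segment and less RNA per cell cannot be told apart.

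All 120 segments lie on the minus strand of chromosome 12, from Ighv5-2 (start 113578504) to Ighv1-86 (start 116009659), and distances below are measured from Ighv5-2, away from the D segments. The proximal families reached 300.6 kb, the middle families lay between 333.5 and 986 kb, and the distal families lay between 884 and 2431 kb, so that the last middle segments lie among Ighv1 segments. Many segments have a close copy among the others. The share of a segment's 50-base words found in no other annotated transcript had a median of 79.4% over the 120. It was under 50% in 17 segments and 0% in 3 (Ighv1-62-2, Ighv1-71 and Ighv1-72). The 4 pairs below are shown because a member of each pair was among the 5 segments with the most counts in a library, and the pair shows how few bases separate it from a close relative. Each line gives 294 bases of the V exon (GENCODE M21 transcripts, GRCm38), 5′ to 3′, with capitals at the bases that differ within the pair.
Ighv1-23: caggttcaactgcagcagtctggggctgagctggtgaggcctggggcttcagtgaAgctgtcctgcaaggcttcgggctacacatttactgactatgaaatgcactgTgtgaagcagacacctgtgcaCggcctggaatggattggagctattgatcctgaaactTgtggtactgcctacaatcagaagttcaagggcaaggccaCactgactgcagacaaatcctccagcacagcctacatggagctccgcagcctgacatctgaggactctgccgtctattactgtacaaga
Ighv1-15: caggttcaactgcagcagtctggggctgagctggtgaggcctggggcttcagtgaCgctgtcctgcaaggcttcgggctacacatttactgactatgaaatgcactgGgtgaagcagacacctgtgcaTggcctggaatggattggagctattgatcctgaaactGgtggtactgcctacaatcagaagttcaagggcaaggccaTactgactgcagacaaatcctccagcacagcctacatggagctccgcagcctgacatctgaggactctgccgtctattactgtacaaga
Ighv1-7: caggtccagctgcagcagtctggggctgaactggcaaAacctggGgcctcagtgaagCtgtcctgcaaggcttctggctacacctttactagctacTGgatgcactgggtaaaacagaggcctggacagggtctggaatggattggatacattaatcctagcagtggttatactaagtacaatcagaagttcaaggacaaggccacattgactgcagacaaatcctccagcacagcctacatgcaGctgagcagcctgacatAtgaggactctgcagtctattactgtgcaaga
Ighv1-4: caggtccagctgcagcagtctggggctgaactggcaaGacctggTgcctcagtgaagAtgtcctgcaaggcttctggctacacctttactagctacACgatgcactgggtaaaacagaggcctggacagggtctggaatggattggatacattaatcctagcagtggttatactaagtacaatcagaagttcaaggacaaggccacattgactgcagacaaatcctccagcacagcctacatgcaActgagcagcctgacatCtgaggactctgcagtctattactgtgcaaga
Ighv1-26: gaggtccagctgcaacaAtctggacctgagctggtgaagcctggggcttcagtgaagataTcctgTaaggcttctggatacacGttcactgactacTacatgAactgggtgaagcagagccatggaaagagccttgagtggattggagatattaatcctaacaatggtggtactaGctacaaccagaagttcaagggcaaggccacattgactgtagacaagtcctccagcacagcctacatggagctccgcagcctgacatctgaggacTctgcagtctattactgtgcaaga
Ighv1-18: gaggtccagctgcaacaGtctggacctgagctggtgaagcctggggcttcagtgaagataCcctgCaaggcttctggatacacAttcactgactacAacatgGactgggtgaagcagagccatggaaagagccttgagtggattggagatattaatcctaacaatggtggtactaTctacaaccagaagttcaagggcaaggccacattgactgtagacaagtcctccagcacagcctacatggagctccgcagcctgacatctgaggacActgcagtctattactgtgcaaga
Ighv2-2: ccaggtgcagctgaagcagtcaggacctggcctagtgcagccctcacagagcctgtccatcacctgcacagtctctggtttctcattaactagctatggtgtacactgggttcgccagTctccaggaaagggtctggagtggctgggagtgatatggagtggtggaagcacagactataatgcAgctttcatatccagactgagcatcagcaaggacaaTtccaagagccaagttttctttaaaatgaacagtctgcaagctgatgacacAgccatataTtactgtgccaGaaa
Ighv2-4: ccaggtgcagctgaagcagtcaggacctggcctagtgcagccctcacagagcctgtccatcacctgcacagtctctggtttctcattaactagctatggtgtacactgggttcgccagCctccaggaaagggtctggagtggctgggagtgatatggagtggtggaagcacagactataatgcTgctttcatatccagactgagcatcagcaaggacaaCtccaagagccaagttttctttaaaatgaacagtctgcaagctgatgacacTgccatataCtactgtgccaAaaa
Ighv1-23 (chr12:114764450-114764743) and Ighv1-15 (chr12:114657353-114657646) differed at 5 bases, and Ighv2-2 (chr12:113588267-113588560) and Ighv2-4 (chr12:113653291-113653584) at 6. Ighv1-7 (chr12:114538495-114538788) and Ighv1-4 (chr12:114487136-114487429) differed at 7, and Ighv1-26 (chr12:114788372-114788665) and Ighv1-18 (chr12:114682632-114682925) at 8. The longest stretch shared without a difference ranged from 88 to 147 bases, so a short read can lie where the pair is identical.

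The libraries held 6487846 counts in Pax5-/- sample 1, 6697879 in Pax5-/- sample 2 and 6530057 in the wild type. The labels describe the 2 Pax5-/- samples as independent without saying whether they came from different mice, and the wild type has no replicate, so the spread between samples comes from the Pax5-/- pair alone. Pax5 had 417 and 551 counts in the Pax5-/- samples against 1601 in the wild type; its count is over the whole gene and does not test for the deleted part. The pro-B markers Rag1, Dntt, Igll1 and Vpreb1 were above 0 in every library. Vpreb1, part of the surrogate light chain, had 1242 and 1823 counts in the Pax5-/- samples against 3427 in the wild type. Pro-B markers were called in both directions. Cd79a (513 and 740 counts in the Pax5-/- samples against 6434) and Cd79b (2419 and 2458 against 8620) were among those lower. Kit (768 and 799 against 136), Il7r (3073 and 2868 against 1518) and Ptprc (3884 and 3851 against 2138) were among those higher. Of 13 markers of later B cells and light chains, 1 was called higher and 10 lower. Iglc1, Iglc2, Ms4a1 and Fcer2a were at 0 in both Pax5-/- samples, and none of the 13 was at 0 in the wild type. Over all 13 the summed level was 396 and 452 CPM in the Pax5-/- samples against 1595 CPM in the wild type. CPM are counts scaled to the size of the library, as defined below. Most of the Pax5-/- sums came from Il2ra, the marker called higher, with 2021 and 2670 counts in the Pax5-/- samples against 650 in the wild type. Igkc, the kappa light chain constant gene, had 54 and 30 counts in the Pax5-/- samples against 3927 in the wild type. T-cell markers summed to 292 and 270 CPM in the Pax5-/- samples against 60.3 CPM in the wild type, nearly all of it from Lck (1498 and 1196 counts in the Pax5-/- samples against 247) and Thy1 (362 and 594 against 120). Trac, a T-cell receptor constant gene, had 29 and 43 counts in the Pax5-/- samples against 7 in the wild type. It was not called (edgeR adjusted p = 0.0605). Cd3d, Cd3e, Cd3g, Cd4, Cd8a, Cd8b1 and Bcl11b had 0 to 7 counts in every library. Plasma cell markers summed to 2431 and 2724 CPM in the Pax5-/- samples against 873 CPM in the wild type, but that direction came from Jchain, with 11987 and 14092 counts in the Pax5-/- samples against 19 in the wild type. Of the 7 plasma cell markers 2 were called higher and 2 lower; those lower were Sdc1 (6 and 11 counts in the Pax5-/- samples against 193) and Irf4 (96 and 130 against 2148). Myeloid markers summed to 33.9 and 49.6 CPM in the Pax5-/- samples against 91.6 CPM in the wild type, with 1 of 10 called higher, 3 lower and 5 not called. S100a8, S100a9 and Ngp, the 3 called lower, had 0 counts in both Pax5-/- samples against 30, 232 and 115 in the wild type. Elane had 0 in both Pax5-/- samples against 2 in the wild type and was not tested. Lyz2 was the marker called higher (92 and 128 counts in the Pax5-/- samples against 28). Stromal markers summed to 8.17 and 6.75 CPM in the Pax5-/- samples against 17.8 CPM in the wild type. What part these markers have in the Ighv results was not tested.

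Ighv transcripts were scarce in every library and, relative to all counts of a library, lower in the Pax5-/- samples. The 120 segments together had 638 and 564 counts in Pax5-/- samples 1 and 2, against 1037 counts in the wild type. In CPM, counts scaled to a common library size with the trimmed mean of M-values (TMM), the sum was 98.4 and 82.8 in the Pax5-/- samples, a mean of 90.6 ± 11.0 (SD, n = 2), against 162 in the wild type, a log2 ratio of -0.83. Both Pax5-/- samples lay below the wild type. A count of 0 allows up to 3 counts, which is 0.463 and 0.440 CPM in the Pax5-/- samples against 0.467 CPM in the wild type. Such floors, and the intervals below, cover counting error only.

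The 3 groups of families stood differently to the wild type. Proximal segments had 267 and 162 counts in the Pax5-/- samples against 204 in the wild type, that is 41.2 and 23.8 CPM in the Pax5-/- samples against 31.8 CPM in the wild type. The Pax5-/- samples lay on either side of the wild type, with log2 ratios of 0.37 and -0.42, so no direction can be given for the proximal sum. Middle segments had 104 and 101 counts in the Pax5-/- samples against 304 in the wild type, a mean of 15.4 ± 0.86 CPM (SD, n = 2) in the Pax5-/- samples against 47.4 CPM in the wild type and a log2 ratio of -1.62. Distal segments had 267 and 301 counts in the Pax5-/- samples against 529 in the wild type, a mean of 42.7 ± 2.12 CPM (SD, n = 2) in the Pax5-/- samples against 82.4 CPM in the wild type and a log2 ratio of -0.95. For the middle and the distal group both Pax5-/- samples lay below the wild type, and middle segments had the lowest ratio of the 3. With 1 wild-type sample, the SD of the Pax5-/- pair cannot show how far wild-type samples would differ. The sums were not tested.

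As shares of a library's Ighv counts, proximal segments made up 41.8% (exact Clopper-Pearson 95% interval 38.0 to 45.8) in Pax5-/- sample 1 and 28.7% (25.0 to 32.7) in Pax5-/- sample 2, against 19.7% (17.3 to 22.2) in the wild type. Middle segments made up 16.3% (13.5 to 19.4) and 17.9% (14.8 to 21.3) in the Pax5-/- samples, against 29.3% (26.6 to 32.2) in the wild type. Distal segments made up 41.8% (38.0 to 45.8) and 53.4% (49.2 to 57.5) in the Pax5-/- samples, against 51.0% (47.9 to 54.1) in the wild type. The proximal share was thus higher and the middle share lower in each Pax5-/- sample, with intervals that did not meet that of the wild type, while the distal share was lower in Pax5-/- sample 1 and not apart from the wild type in sample 2. The 2 Pax5-/- samples differed from each other in the proximal and the distal share by more than counting error.

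**Figure D1:**
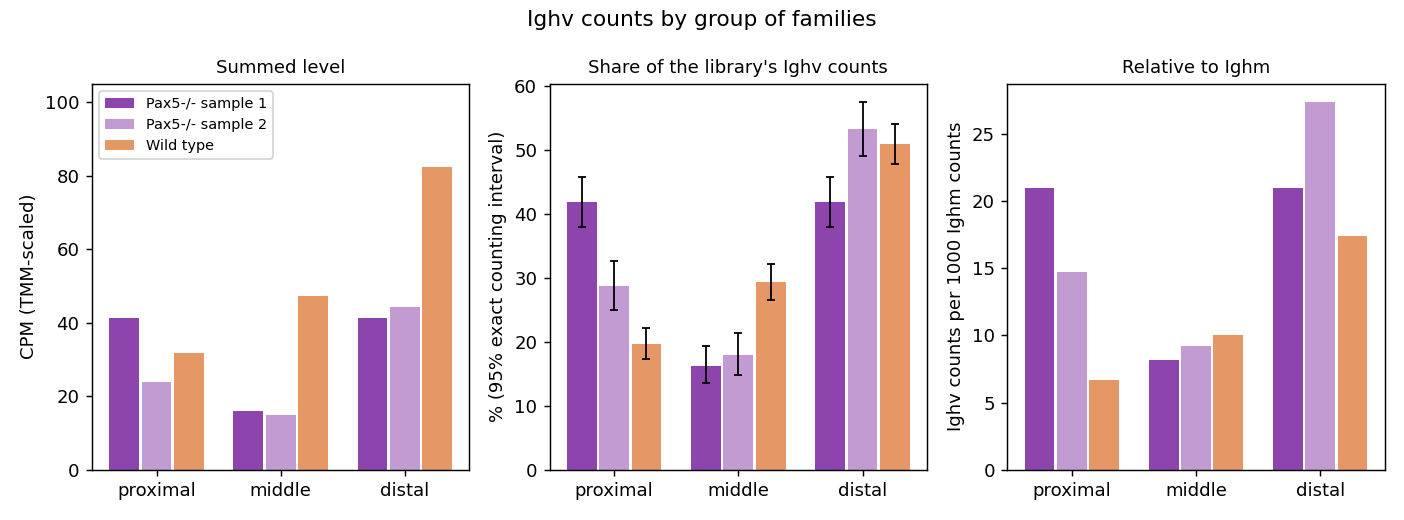
Ighv counts by group of families in Pax5-/- sample 1, Pax5-/- sample 2 and the wild type: summed TMM-scaled CPM (left), percent of the library's Ighv counts with exact 95% counting intervals (middle) and Ighv counts per 1000 Ighm counts (right). Each bar is 1 library; the middle group was 16.0 and 14.8 CPM in the Pax5-/- samples against 47.4 CPM in the wild type, while the proximal bars of the Pax5-/- samples lie on either side of the wild type in the left panel.

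Ighm, the constant part of the mu heavy chain, also fell. It had 12738 and 10997 counts in the Pax5-/- samples against 30430 in wild type (log2 fold change -1.41, SE 0.14; edgeR quasi-likelihood test with Benjamini-Hochberg adjustment over all genes, adjusted p = 0.0102). Per 1000 Ighm counts, a scale chosen after the data were seen, proximal segments had 21.0 and 14.7 in the Pax5-/- samples against 6.70 in the wild type. Middle segments had 8.16 and 9.18 in the Pax5-/- samples against 9.99 in the wild type, and distal segments 21.0 and 27.4 in the Pax5-/- samples against 17.4 in the wild type. All 120 segments together had 50.1 and 51.3 in the Pax5-/- samples against 34.1 in the wild type. Relative to Ighm the whole sum and the proximal and distal sums were thus higher in both Pax5-/- samples, so the direction of the whole and of the distal sum depends on the scale.

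Within the proximal group the segments at the very edge of the cluster stood apart from the rest. The 5 nearest segments, Ighv5-2 to Ighv5-6, which lie within 47.0 kb, had 253 and 152 counts in the Pax5-/- samples against 116 in the wild type. The other 14, Ighv2-4 to Ighv2-9, had 14 and 10 counts in the Pax5-/- samples against 88 in the wild type. The limit between them was set with the values known. Fixed windows of 243 kb along the locus gave the lowest level in the sixth, with 0 and 1 counts on its 9 segments in the Pax5-/- samples against 27 in the wild type. That window was the lowest in the wild type too, and none of its 9 segments was tested. In the third window there were 19 and 15 counts in the Pax5-/- samples against 115 in the wild type, and in the first, 266 and 160 in the Pax5-/- samples against 164 in the wild type. The level in the Pax5-/- samples did not fall steadily with distance: the fourth window had 79 and 82 counts in the Pax5-/- samples against 122 in the wild type, and the tenth, at the far end, 71 and 73 in the Pax5-/- samples against 113 in the wild type.

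**Figure D2:**
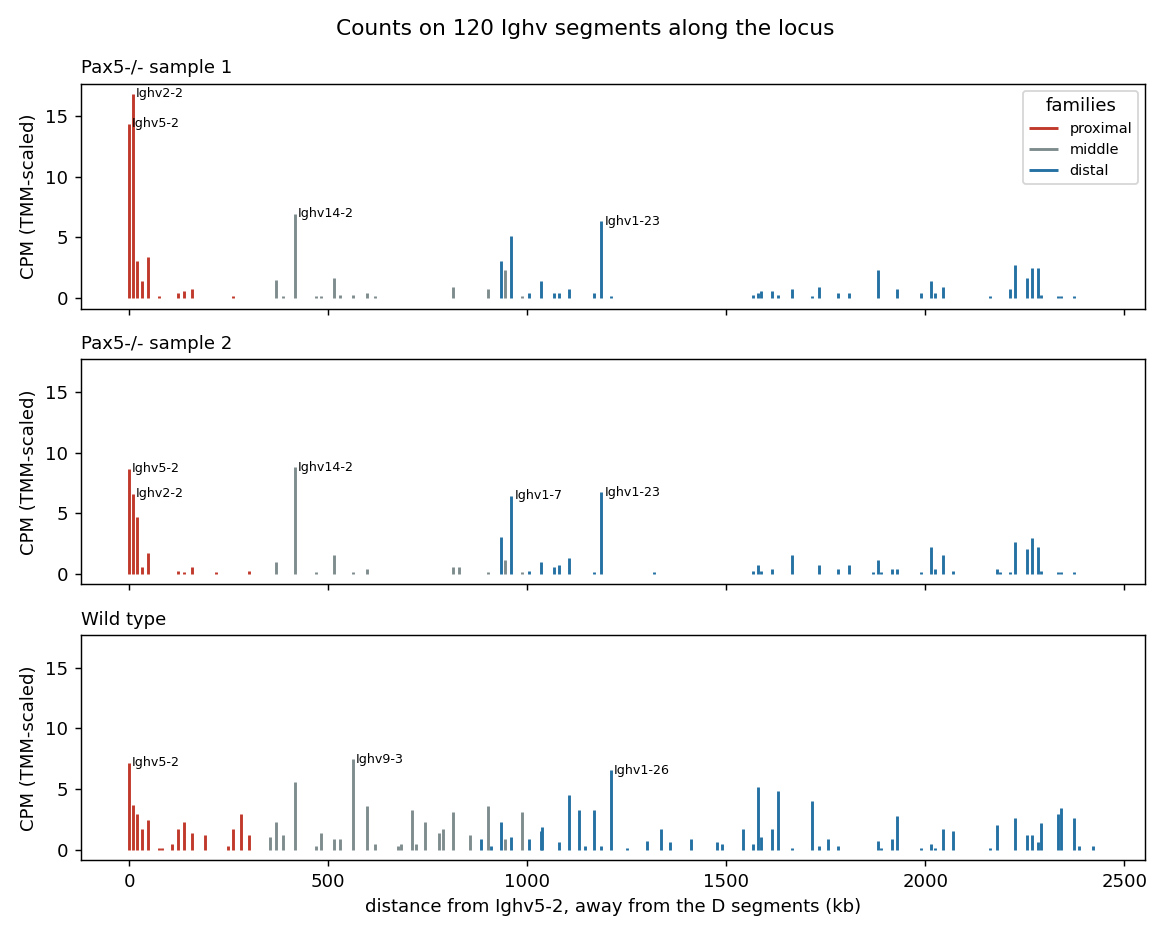
Level of each of the 120 segments (TMM-scaled CPM) against its distance in kb from Ighv5-2, away from the D segments, in Pax5-/- sample 1 (top), Pax5-/- sample 2 (middle) and the wild type (bottom), coloured by group of families. In the Pax5-/- samples a few tall lines stand over long empty stretches, with Ighv2-2 and Ighv5-2 at the near edge, Ighv14-2 in the middle families and Ighv1-23 among the distal ones; in the wild type lines run along the whole locus and none exceeds 7.48 CPM.

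Of the 120 segments, 45 had enough counts to be tested, and 75 did not. Over all genes the edgeR quasi-likelihood test called 18.1% of 11783 tested genes at an adjusted p under 0.05, 9.53% higher and 8.55% lower in the Pax5-/- samples. Among the 45 segments 2 were called higher, 12 were called lower and 31 were not called; the higher calls are below the share over all genes. The filter bears on these counts, since 26 of the 45 reached 10 counts in the wild type alone, all 12 segments called lower among them, and 10 in Pax5-/- samples alone, both segments called higher among them. Of the 9 that reached 10 counts in both, none was called. By group, 8 proximal segments were tested and none was called; 4 of 11 tested middle segments were called lower; and 2 of 26 tested distal segments were called higher and 8 lower. At an unadjusted p under 0.05 there were 3 higher and 22 lower, but the share over all genes at that threshold was not counted. DESeq2 called 1 segment higher and 4 lower, against 8.85% and 6.93% of all genes it tested, and with a filter of 10 counts in 2 libraries none of the 12 lower segments was tested.

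**Figure D3:**
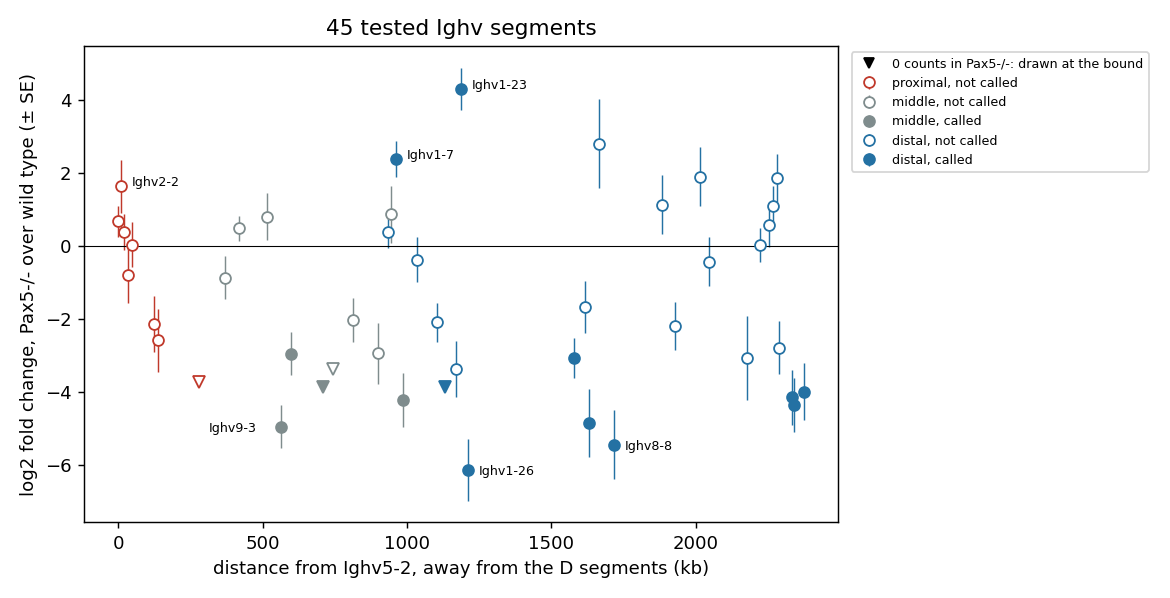
Log2 fold change, Pax5-/- over wild type, with its SE for the 45 tested segments against distance in kb from Ighv5-2; filled points passed an adjusted p of 0.05 and triangles mark segments with 0 counts in both Pax5-/- samples, drawn at their bound. The 2 filled points above 0 are Ighv1-7 and Ighv1-23 and the 12 filled points below 0 lie between 562 and 2374 kb, while the proximal points spread around and below 0 with none filled.

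Among proximal segments, Ighv5-2, the counted segment nearest to the D segments, had 93 and 59 counts in the Pax5-/- samples against 46 in the wild type. Per kilobase of listed length it had 40.6 and 24.5 CPM in the Pax5-/- samples against 20.3 CPM in the wild type, and both Pax5-/- samples were higher. The fitted log2 fold change was 0.68 (SE 0.42, adjusted p = 0.321 by the edgeR quasi-likelihood test), which did not pass. Ighv2-2, its neighbour at 9.76 kb, had 109 and 45 counts in the Pax5-/- samples against 24 in the wild type. Its log2 fold change was 1.64 (SE 0.72, adjusted p = 0.191 by the same edgeR test), and its Pax5-/- samples differed 2.55-fold on the CPM scale. Its close relative Ighv2-4 had 1 and 0 counts in the Pax5-/- samples against 1 in the wild type. Ighv5-4 had 20 and 32 counts in the Pax5-/- samples against 19 in the wild type, and Ighv5-6 had 22 and 12 in the Pax5-/- samples against 16 in the wild type; neither was called. Ighv5-17, at 280.6 kb, had 0 counts in both Pax5-/- samples against 19 in the wild type, at least 13.1-fold lower with 3 counts taken over the Pax5-/- group, and just missed the threshold (adjusted p = 0.0505, edgeR). The nearest segments were therefore present in all 3 libraries, and segments farther out in the same 2 families were seen mainly in the wild type.

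In the middle families a single segment, Ighv14-2, held 45 of the 104 and 60 of the 101 counts in the Pax5-/- samples against 36 of 304 in the wild type, a log2 fold change of 0.49 (SE 0.34, edgeR adjusted p = 0.371), and was not called. Ighv9-1 had 11 and 11 counts in the Pax5-/- samples against 6 in the wild type, and Ighv10-3 had 15 and 8 in the Pax5-/- samples against 6 in the wild type; Ighv4-1 had 10 and 7 in the Pax5-/- samples against 15 in the wild type. None of the 3 was called. The 4 middle segments that fell were all near or at 0 without Pax5. Ighv9-3, the segment with the most counts in the wild type, had 2 and 1 counts in the Pax5-/- samples against 48 in the wild type, a ratio of pooled CPM of 0.0302 (exact 95% counting interval 0.00601 to 0.0936; adjusted p = 0.0143, edgeR). Ighv15-2, which shares no 50-base word with another transcript, had 1 and 1 counts in the Pax5-/- samples against 20 in the wild type, a ratio of 0.0483 (0.00547 to 0.199; edgeR adjusted p = 0.0326). Ighv3-6 had 0 counts in both Pax5-/- samples against 21 in the wild type, at least 14.5-fold lower (edgeR adjusted p = 0.0466). Ighv14-4 had 3 and 3 counts in the Pax5-/- samples against 23 in the wild type, a log2 fold change of -2.94 (SE 0.59, edgeR adjusted p = 0.0431). The calls of Ighv14-4 and Ighv15-2 were lost with DESeq2, with adjusted p = 0.243 and 0.143, and that of Ighv3-6 with scaling by library size alone (edgeR adjusted p = 0.0564). Ighv14-2 and Ighv14-4 belong to 1 family, as do Ighv9-1 and Ighv9-3, and only the second of each pair was called. The difference within the pairs was not tested.

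Both segments called higher belong to the distal family Ighv1, and both lie in its nearer part. Ighv1-23, at 1186 kb, had 41 and 46 counts in the Pax5-/- samples against 2 in the wild type, a ratio of pooled CPM of 21.0 (exact 95% counting interval 5.64 to 176). Its fitted log2 fold change was 4.31 (SE 0.58, adjusted p = 0.0181 by the edgeR quasi-likelihood test). Ighv1-15, which differs from it at 5 bases, had 3 and 5 counts in the Pax5-/- samples against 4 in the wild type. The difference was thus seen on 1 of these 2 near-identical segments. How a read from the stretches they share was counted is not known. Ighv1-7, at 960 kb, had 33 and 44 counts in the Pax5-/- samples against 7 in the wild type, a log2 fold change of 2.39 (SE 0.50, edgeR adjusted p = 0.0467). Its call was lost with scaling by library size alone, DESeq2, limma-voom and a fixed biological coefficient of variation of 0.4. Its near copy Ighv1-4 had 0 counts in both Pax5-/- samples against 2 in the wild type. Ighv1-5, between them at 935 kb, had 20 and 21 counts in the Pax5-/- samples against 15 in the wild type, and was not called (edgeR adjusted p = 0.577).

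At the far end of the cluster, segments with more and with fewer counts also lay close together. Ighv1-76, at 2269 kb, had 16 and 20 counts in the Pax5-/- samples against 8 in the wild type, and Ighv1-77, the next segment, 16 and 15 in the Pax5-/- samples against 4 in the wild type; neither was called, with edgeR adjusted p = 0.236 and 0.128. Between 2334 and 2374 kb, Ighv1-80 had 1 and 1 counts in the Pax5-/- samples against 19 in the wild type, Ighv1-81 had 1 and 1 against 22, and Ighv1-82 had 1 and 1 against 17. All 3 were called lower, with edgeR adjusted p = 0.0348, 0.0288 and 0.0405, and none of the 3 was called with DESeq2. Ighv1-77, Ighv1-80, Ighv1-81 and Ighv1-82 were picked for mention with their values known.

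The other distal segments called lower were among those with the most counts in the wild type. Ighv1-26 had 1 and 0 counts in the Pax5-/- samples against 42 in the wild type, a ratio of 0.0115 (exact 95% counting interval 0.000284 to 0.0676; edgeR adjusted p = 0.0191). Its relative Ighv1-18, which differs at 8 bases, had 5 and 9 counts in the Pax5-/- samples against 29 in the wild type and did not pass (log2 fold change -2.08, SE 0.54, edgeR adjusted p = 0.0722). Ighv1-55 had 2 and 0 counts in the Pax5-/- samples against 31 in the wild type, a ratio of 0.0311 (0.00361 to 0.122; edgeR adjusted p = 0.0399). Ighv8-8, of the Ighv8 family, had 1 and 0 counts in the Pax5-/- samples against 26 in the wild type, a ratio of 0.0186 (0.000453 to 0.113; edgeR adjusted p = 0.0312). Ighv1-19 had 0 counts in both Pax5-/- samples against 21 in the wild type, at least 14.5-fold lower (edgeR adjusted p = 0.0466). Ighv1-53 kept some counts, with 3 and 5 in the Pax5-/- samples against 33 in the wild type, a log2 fold change of -3.06 (SE 0.54, edgeR adjusted p = 0.0330). With DESeq2 the calls of Ighv1-53, Ighv1-55 and Ighv8-8 were lost, with adjusted p = 0.127, 0.0577 and 0.0616, and with library size alone that of Ighv1-19 (edgeR adjusted p = 0.0564). Ighv1-23, called higher, and Ighv1-26, called lower, thus lie close together, at 1186 and 1210 kb.

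By family, the sums stood at very different distances from the wild type. Ighv3 had 2 and 0 counts over its 6 segments in the Pax5-/- samples against 52 in the wild type, and Ighv8 had 8 and 7 over its 10 segments in the Pax5-/- samples against 54 in the wild type. Ighv9 had 15 and 12 counts in the Pax5-/- samples against 63 in the wild type, and Ighv6 had 6 and 8 in the Pax5-/- samples against 28 in the wild type. Ighv12 and Ighv13 had 0 counts in both Pax5-/- samples, against 11 and 9 in the wild type. Other families were nearer to the wild type. Ighv14 had 49 and 63 counts in the Pax5-/- samples against 75 in the wild type, and Ighv1 had 259 and 294 in the Pax5-/- samples against 475 in the wild type. Ighv5 had 144 and 109 counts in the Pax5-/- samples against 134 in the wild type, and Ighv2 had 123 and 53 in the Pax5-/- samples against 70 in the wild type. Ighv7 and Ighv16 were at 0 in all 3 libraries. The 2 families assigned to the distal group therefore differed, with log2 ratios of the summed CPM of -2.90 for Ighv8 and -0.83 for Ighv1.

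The Pax5-/- samples held fewer different segments, and their counts were concentrated on few. At 3 counts or more, 42 and 37 segments were seen in the Pax5-/- samples against 74 in the wild type; the Pax5-/- libraries also held fewer Ighv counts. By group the numbers were 8 and 6 of 19 proximal segments in the Pax5-/- samples against 13 in the wild type, 7 and 7 of 31 middle segments against 21, and 27 and 24 of 70 distal segments against 40. Of the segments with 3 counts or more in the wild type, 22 had 0 in both Pax5-/- samples, 3 of them proximal, 8 middle and 11 distal. The opposite, 3 counts or more over the Pax5-/- samples against 0 in the wild type, held for 4 segments: Ighv6-4, Ighv1-14, Ighv1-62-1 and Ighv1-73. This rule pooled both Pax5-/- samples while the first used the wild-type sample alone, so 22 and 4 are not directly comparable. How many of all genes met either rule was not counted, so neither number can be read as particular to Ighv. In all, 20 segments were at 0 in every library; the median share of words found in no other transcript was 95.5% for them, and 6 of the 20 are pseudogenes in GENCODE, which calls 9 of the 120 so.

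The inverse Simpson index, the number of equally used segments that would give the same concentration, was 14.1 and 18.6 in the Pax5-/- samples against 50.3 in the wild type. The 5 segments with the most counts held 50.3% and 45.0% of the Ighv counts in the Pax5-/- samples against 19.8% in the wild type. They were the same 5 segments in both Pax5-/- samples: Ighv2-2, Ighv5-2, Ighv14-2, Ighv1-23 and Ighv1-7. Ighv2-2 led Pax5-/- sample 1 with 17.1% (exact 95% interval 14.2 to 20.2), Ighv14-2 led Pax5-/- sample 2 with 10.6% (8.22 to 13.5), and Ighv9-3 led the wild type with 4.63% (3.43 to 6.09).

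**Figure D4:**
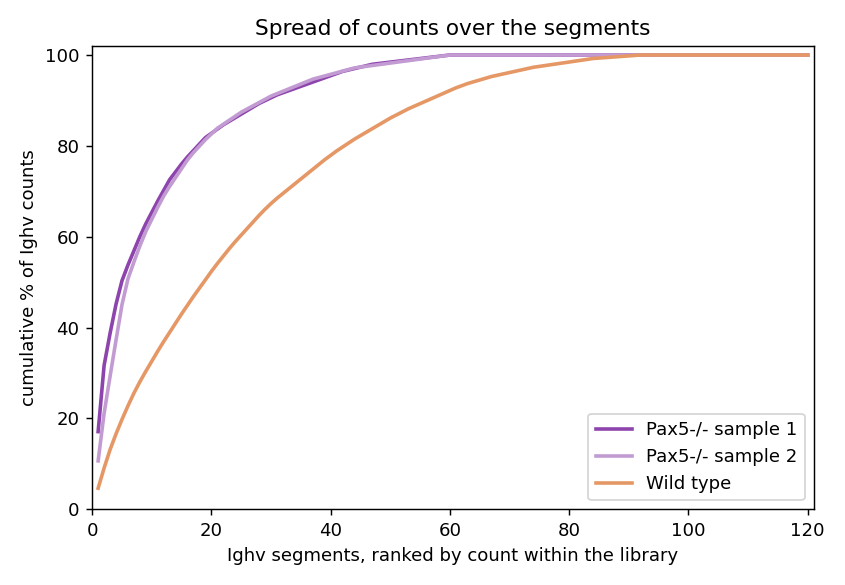
Cumulative percent of a library's Ighv counts over its segments ranked by count, for Pax5-/- sample 1, Pax5-/- sample 2 and the wild type. The Pax5-/- lines rise together and hold 50.3% and 45.0% within the first 5 segments, against 19.8% in the wild type, whose line rises more slowly.

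The 2 Pax5-/- samples, described as independent, were alike segment by segment. Over the 58 segments with 10 counts or more in the 3 libraries together, log2(CPM + 1) in Pax5-/- sample 1 and Pax5-/- sample 2 had a Pearson r of 0.94 and a Spearman rho of 0.90. With the wild type, Pax5-/- sample 1 had an r of -0.02 and a rho of -0.17, and Pax5-/- sample 2 an r of -0.10 and a rho of -0.26. These are descriptions across segments, which share libraries and similar sequence and are not independent replicates. Segments enter this set with enough counts in any library, many through 1 genotype alone, a choice that can lower the r between genotypes and raise the r of the Pax5-/- pair. Ighv1-23 had 41 and 46 counts in the Pax5-/- pair, while Ighv2-2 and Ighv10-3 were 2.55-fold and 1.97-fold higher in sample 1 than in sample 2 on the CPM scale.

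**Figure D5:**
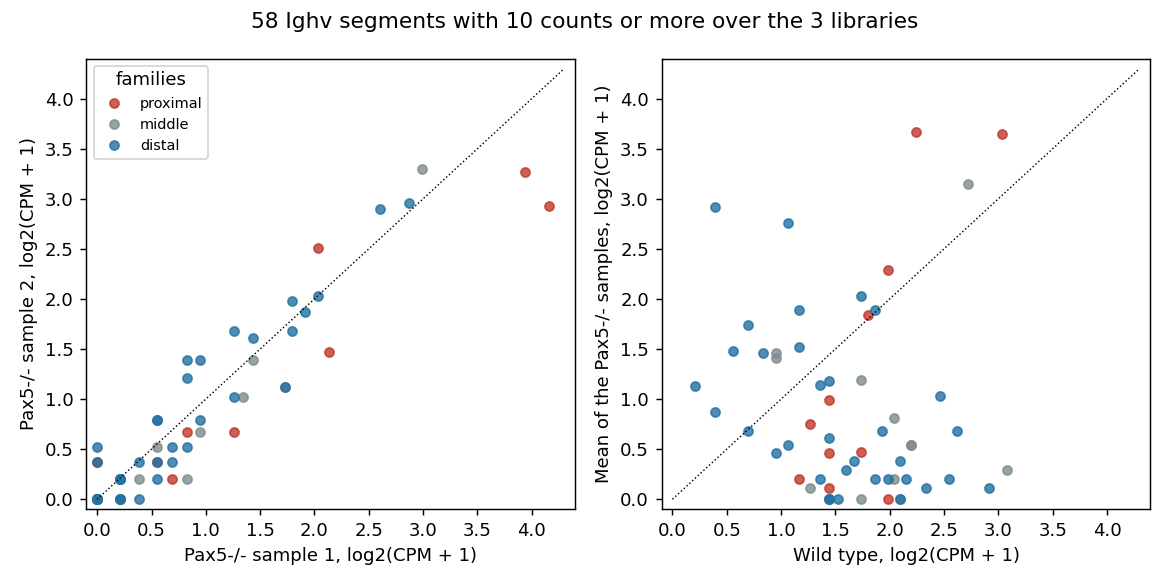
Level of 58 segments, log2(CPM + 1), in Pax5-/- sample 2 against Pax5-/- sample 1 (left) and as the mean of the Pax5-/- samples against the wild type (right), coloured by group of families, with the line of equal level. Points follow the line on the left, where r was 0.94, and spread away from it on the right.

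Few other genes of the heavy chain locus had enough counts to be tested. Among 24 D and J segments, constant genes and the Adam6 genes between V and D segments, 16 were not tested, 3 were called lower, beside 8.55% over all genes, none was called higher and 5 were not called. The median log2 fold change of those tested was -1.47, against 0.0074 over all genes tested. The J segments had few counts: Ighj4 had 12 and 16 in the Pax5-/- samples against 40 in the wild type and Ighj3 had 24 and 23 in the Pax5-/- samples against 32 in the wild type, and neither was called. Ighd, here the delta constant gene, had 46 and 39 counts in the Pax5-/- samples against 171 in the wild type, a log2 fold change of -2.05 (SE 0.25, edgeR adjusted p = 0.0143). Ighg2b, the gamma 2b constant gene used after class switching, had 0 counts in both Pax5-/- samples against 613 in the wild type, at least 423-fold lower. Whether the counts of Ighg2b and Igkc came from more mature B-lineage cells was not tested, and neither was their part in the Ighv differences.

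Genes that cut and join the segments were called in both directions. Of 16 genes of recombination and end joining, 4 were called higher, 4 lower and 8 were not called, beside 9.53% higher and 8.55% lower over all genes, and the median log2 fold change was 0.15. Rag1, a subunit of the recombinase, averaged 627 ± 72.0 CPM in the Pax5-/- samples (SD, n = 2) against 348 CPM in the wild type, a log2 fold change of 0.85 (SE 0.15, edgeR adjusted p = 0.0313); Rag2, the other subunit, was not called (72.5 ± 0.20 CPM in the Pax5-/- samples against 62.8 CPM in the wild type). Dntt, which adds bases at the junctions, rose with a log2 fold change of 1.14 (SE 0.17, edgeR adjusted p = 0.0234), and so did the gap-filling polymerase gene Poll (1.46, SE 0.20, edgeR adjusted p = 0.0187). Lig4, the end-joining ligase, fell with a log2 fold change of -2.76 (SE 0.23, edgeR adjusted p = 0.00698). Polm, a related polymerase gene, had 0 counts in both Pax5-/- samples against 246 in the wild type, at least 170-fold lower.

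Of 23 genes of locus architecture and accessibility, 3 were called higher, 5 lower and 15 were not called, beside 9.53% higher and 8.55% lower over all genes. Their median log2 fold change was -0.17. Pax5 itself, the gene that defines the genotype, is in this list and is among the 5 called lower. Wapl, which releases cohesin from chromosomes and is known to be repressed by Pax5 in pro-B cells, averaged 205 ± 3.01 CPM in the Pax5-/- samples (SD, n = 2) against 35.4 CPM in the wild type, a log2 fold change of 2.54 (SE 0.15, edgeR adjusted p = 0.00415). Brwd1, a chromatin reader of B-cell precursors, rose with a log2 fold change of 1.70 (SE 0.19, edgeR adjusted p = 0.0130). The B-lineage factors Ikzf3 and Ebf1 fell, with log2 fold changes of -6.86 and -1.62 (edgeR adjusted p = 0.00442 and 0.0100), and Ezh2, the Polycomb methyltransferase, fell by 0.79 on the log2 scale (edgeR adjusted p = 0.0295). Ctcf, which binds between V segments, and Yy1, a factor known to be needed for locus contraction, were not called; their log2 fold changes were -0.24 (SE 0.11) and 0.04 (SE 0.13). With a fixed biological coefficient of variation of 0.4, Rag1, Dntt, Poll, Brwd1, Ebf1, Ezh2, Ighm and Pax5 did not pass, and with the likelihood ratio test Rag1 and Ezh2 did not.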

How the data were processed

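RNA sequencing of 2 Pax5-/- samples and 1 wild-type sample was grouped by the genotype in the titles. The deposited values are whole-number counts per gene, which the authors produced with featureCounts on mm10 per the submitters' processing notes. Aligner, read length, annotation, strand and the handling of reads matching several places were not given in the sources used here. Reads of overlapping or antisense genes therefore cannot be separated. Each file also lists a gene length, per the file headers. A table of the whole series held equal counts for all 27179 genes of each library.

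Symbols and coordinates came from RefSeq GRCm38.p6 by Entrez number (25275 matched). The members, groups and gene lists were chosen with earlier results of these data known. The analysis used edgeR 4.0.16 in R 4.3.3, with filterByExpr with a minimum count of 10, TMM factors of 1.00, 1.018 and 0.983, glmQLFit and glmQLFTest, Pax5-/- over wild type, with Benjamini-Hochberg adjustment over 11783 genes and a threshold of 0.05. The fit had 1 residual degree of freedom, 3.15 prior degrees and a common dispersion of 0.0410. Scripts were tested on simulated data. Folds against a group at 0 are bounds with 3 counts over the group; with 1 to 3 counts in a group the pooled CPM ratio is given with its exact 95% interval.

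Named segments were, in each group of families, the 4 highest per kilobase in each genotype, up to 4 called by fold change (mean CPM 1 or more), and any holding 10% of a library's Ighv counts; from each list, up to 4 called genes; and Ighm, Rag1, Rag2, Dntt, Ctcf, Wapl, Yy1, Ezh2 and Ebf1. Other genes were named with their values known, and the result of 1 marker gene is not reported here. Alternatives were other scalings, filters and dispersions, a likelihood ratio test, DESeq2 1.42.0, limma-voom (limma 3.58.1), other cuts of the locus, and each Pax5-/- sample left out.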

Additional observations from a re-analysis of the deposited data

How the results depend on the processing

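The 14 segment calls were all kept with RLE scaling, with no filter, with robust dispersion and with the likelihood ratio test; 13 were kept with limma-voom and with a fixed biological coefficient of variation of 0.4, which both lost Ighv1-7, 11 with library size alone and 5 with DESeq2. Where 10 counts in 2 libraries were required, Ighv1-7 and Ighv1-23 were kept and the number of segments called lower was 0, because the 12 were then not tested. The number called lower was 4 with DESeq2 and 23 with the likelihood ratio test, and the number called higher was 1 with library size alone, DESeq2, limma-voom and the fixed coefficient. With that coefficient, 623 genes were called higher and 583 lower; the recombination list had 0 higher and 2 lower, and the architecture list 1 and 1. With the likelihood ratio test 2 recombination genes were higher and 5 other heavy chain locus genes lower. Without the top segment of each library the middle log2 ratio was -1.85. With the locus cut into 3 equal lengths the proximal log2 ratio was -0.59 and the middle one -1.15. Per Ighm count, the log2 ratio was 0.57 for all segments, 1.41 for proximal, -0.20 for middle and 0.48 for distal segments. The number of segments detected, Pax5-/- mean minus wild type, was -34.5 at 3 counts and -25.0 at 10 counts. Ighv5-6 had a log2 fold change of -0.0368 with limma-voom. Over these alternatives 5.29% to 12.1% of all genes tested were called higher and 4.95% to 10.6% lower. The cause of these shifts was not tested, except where the filter removed genes.

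Leaving out 1 Pax5-/- sample left no residual degree of freedom, so values only are given. The log2 ratio then ranged from -0.42 to 0.37 for proximal, -1.68 to -1.56 for middle and -1.001 to -0.90 for distal segments. The distal share in Pax5-/- minus wild type was -3.40 percentage points, and from -9.16 without sample 2 to 2.36 without sample 1; without the top segments it was 1.61. The difference in segments detected ranged from -37.0 to -32.0 and that in the inverse Simpson index from -36.2 to -31.7. No paired analysis was possible because the wild type had 1 sample. Of the alternatives for single named genes, 317 kept direction and side of the threshold, 21 no longer passed, 7 passed newly and 1 changed direction. With 0 to 109 counts per segment and library, small differences between segments could not be detected.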
